A study of Arabidopsis thaliana with 6 samples.

Results

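The genes described here carry the locus numbers of the large insertion of mitochondrial DNA on chromosome 2 of Arabidopsis thaliana, and are called insertion genes by that number alone. Members were the genes numbered from AT2G07667 to AT2G07835, found through the gene identifiers of the authors' annotated table. The lowest-numbered probe sets of the array, a series known to hold organelle genes, were left out, and the probe set with the highest mean stood for each gene. This gave 39 genes of the 20310 genes that had a probe set of their own in the series. The RefSeq table of assembly TAIR10.1 lists 144 loci in the same range, of which 105 had no counted probe set. Those 144 loci comprise 68 protein-coding genes, 30 pseudogenes, 24 transcribed pseudogenes, 21 tRNA genes and 1 long noncoding RNA gene, and the 39 genes comprise 38 protein-coding genes and 1 tRNA gene. In RefSeq order 36 of the 39 form a run, and the other 3 (AT2G07680, AT2G07690 and AT2G07760) follow it. These 3 may lie outside the inserted DNA, whose limits were not analysed here. They were set apart after their values were seen. Their differences between heat and control, 0.06 to 0.26 on the log2 scale, are therefore no evidence of their place. Of the 3, 2 carry gene names of their own.

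RNA was measured in whole seedlings of the ecotype Col-0, with 1 Affymetrix array for each of 6 samples. The heat group held 3 samples exposed to 37 °C for 30 min under light, and 3 further samples stayed under light at 23 °C, the growth temperature, as controls. All seedlings had been kept at 4 °C in the dark for 72 h as seeds and then grown on solid medium at 16 h light and 8 h darkness. The labels give the heat samples ages of 13, 14 and 15 days and the control samples ages of 10, 11 and 12 days, whereas the series text gives 10 days for all. The labelled ages of the groups do not overlap, so age was fitted beside group only as an alternative. The labels do not say whether the 3 samples of a group were grown separately, so errors and p-values measure only the spread between these arrays.

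Plant mitochondria keep a small genome that encodes subunits of the respiratory chain and of ATP synthase, proteins of the mitochondrial ribosome, tRNAs and ribosomal RNAs. Pieces of that genome have moved into the nucleus repeatedly during plant evolution, and in Col-0 a nearly complete copy sits beside the centromere of chromosome 2. Most genes in this copy therefore have a near-identical counterpart in the mitochondrion. A signal on their probe sets may come from RNA of either copy, and the sources of the signal cannot be told apart in these data, in which no probe sequence was analysed.

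These genes were chosen on the basis of earlier results from their heat minus control levels in the same 6 arrays. The heat and control levels are therefore given as a description, without a test of the members, and nothing is read from the number of members called. A probe set was called when its adjusted p in limma's test over all 22746 probe sets was under 0.05. All levels are log2 values after RMA, the normalization that gives every array the same distribution of probe intensities. Array medians over the probe sets still lay lower in heat, at 4.39 to 4.43, than in control arrays, at 4.49 to 4.53. Differences are heat minus control on the log2 scale with limma standard errors (n = 3 arrays per group), so a difference of 1 is a 2-fold change. Control array 3 stood apart from the other control arrays by high levels of some heat shock genes, so the members' summary is given with and without it.

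Most of the measured insertion genes gave a stronger signal after heat. Of the 39 genes, 30 were called higher, none was called lower and 9 were not called, while 7.82% of all probe sets were called higher and 11.5% lower. At an unadjusted p under 0.05, 33 members were higher and 0 lower, against 14.1% and 18.1% of all probe sets. With each probe set's own spread limma again called 30 higher and 0 lower, against 4.27% and 5.18% of all probe sets. A call with a change of at least 2-fold upwards was reached by 25 members and downwards by none, against 2.80% and 3.98% of all probe sets. All 3 heat arrays lay above all 3 control arrays for 36 members, against 18.8% of all probe sets. The median difference of the 39 genes was 2.19, within a range of 0.06 to 4.71, against a median of 0.02 for all probe sets. Without control array 3, 29 members were called higher and the median difference was again 2.19. Every difference was positive, but 10 turned negative when arrays were scaled to the 24 Bacillus control probe sets, a setting that lowers the median of all probe sets to -0.49. In whole seedlings, a larger share of cells rich in an RNA and more of that RNA per cell cannot be told apart.

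The size of the difference varied widely between members. It was at least 2 for 21 genes, where 1.42% of all probe sets were at least 4-fold higher, and for 4 of these, AT2G07741, AT2G07722, AT2G07675 and AT2G07707, it was at least 4. It lay between 1 and 2 for 4 genes, between 0.5 and 1 for 4 genes and below 0.5 for 10 genes. The median level of the members was 6.0 in heat and 3.78 in control seedlings. The median SD of a member was 0.14 among heat arrays and 0.13 among control arrays, close to the medians of 0.11 and 0.14 over all probe sets.

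**Figure D1:**
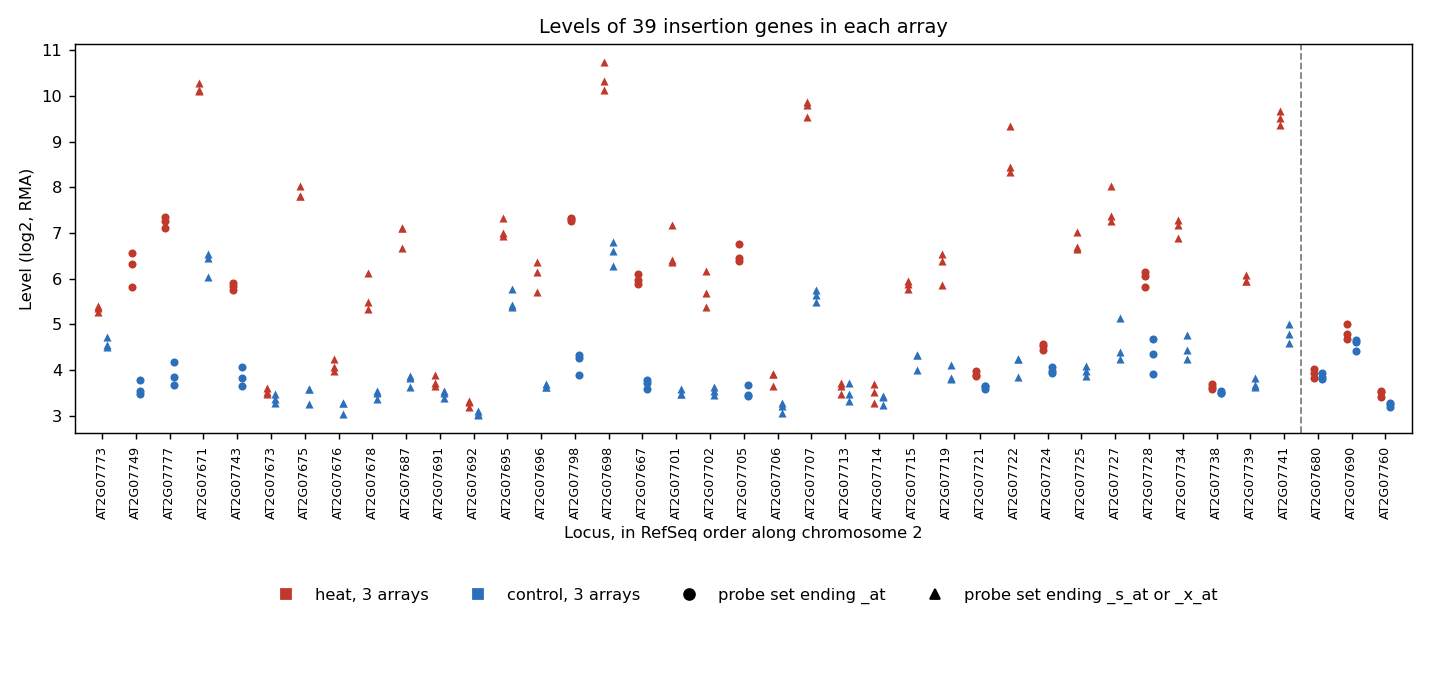
Log2 RMA level (vertical axis) of each of the 39 insertion genes (horizontal axis, in RefSeq order) in the 3 heat arrays (red, left) and 3 control arrays (blue, right), with circles for probe sets ending _at and triangles for those ending _s_at. For 36 genes the red points lie above all blue points, and the 3 loci after the dashed line have differences of 0.06 to 0.26. With Bacillus scaling, 10 of the 39 differences turn negative.

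The name of an Affymetrix probe set tells how specific its probes were meant to be. A name ending _at marks probes chosen to match 1 transcript, and a name ending _s_at marks probes that all match more than 1 transcript of the design. Of the members, 13 had an _at probe set and 26 an _s_at probe set, and none ended _x_at. The choice of probes took account of the sequences known when the array was designed, so an _at ending does not show that the mitochondrial copy escapes detection. Among the _at genes 9 of 13 were called higher with a median difference of 1.70, where 7.73% of all _at probe sets were called higher. Among the _s_at genes 21 of 26 were called higher with a median of 2.32, where 9.52% of all _s_at and _x_at probe sets were. The _at median rests on widely spaced values and was 0.53 without the first and the last member in locus order.

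Of the _at genes, AT2G07777 had the largest difference. Its levels were 7.26, 7.34 and 7.11 in heat and 3.68, 4.18 and 3.86 in control seedlings, a difference of 3.33 ± 0.14 or 10.0-fold. The lowest heat array lay 2.93 above the highest control array. AT2G07798 had 7.33, 7.26 and 7.31 in heat and 3.90, 4.27 and 4.34 in control seedlings, a difference of 3.13 ± 0.13. AT2G07705 had 6.45, 6.75 and 6.38 in heat, against 3.45, 3.67 and 3.44 in control seedlings, and differed by 3.01 ± 0.13. In both genes the groups stood apart by more than 2.7. The SD among heat and among control arrays was 0.03 and 0.24 for AT2G07798, and 0.20 and 0.13 for AT2G07705.

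AT2G07749 varied more among the heat arrays, with 5.81, 6.56 and 6.33 in heat and 3.47, 3.55 and 3.78 in control seedlings (difference 2.63 ± 0.20). AT2G07667, annotated as a hypothetical protein, had 6.11, 5.97 and 5.89 in heat and 3.72, 3.78 and 3.58 in control seedlings (difference 2.30 ± 0.10). These groups too lay more than 2 apart. AT2G07743 is a tRNA gene, named tRNA-Asp among the RefSeq synonyms, and is the only member that encodes no protein. Its levels were 5.91, 5.75 and 5.84 in heat and 4.06, 3.83 and 3.66 in control seedlings, a difference of 1.98 ± 0.12. AT2G07728 had 6.14, 6.07 and 5.81 in heat and 4.35, 4.67 and 3.91 in control seedlings, a difference of 1.70 ± 0.20. Control array 3 was the lowest array for both of these genes.

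Other _at genes of the insertion had small differences. AT2G07724 had 4.53, 4.58 and 4.45 in heat and 4.07, 3.94 and 3.97 in control seedlings, a difference of 0.53 ± 0.08. It was not called with Bacillus scaling (difference 0.02) or with labelled age as a covariate (0.66). AT2G07721 had 3.98, 3.89 and 3.88 in heat and 3.66, 3.66 and 3.58 in control seedlings, a difference of 0.28 ± 0.07. It lay closest to the call threshold: leaving out any 1 of the 6 arrays ended its call, with differences of 0.25 to 0.30, as did quantile normalization, the filter on dim probe sets, the replicate block and labelled age as a covariate (0.42), and with Bacillus scaling the difference was -0.22. AT2G07738 had 3.63, 3.69 and 3.59 in heat and 3.55, 3.51 and 3.51 in control seedlings, a difference of 0.12 ± 0.07 that was not called. Its lowest heat array lay 0.04 above its highest control array.

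The 8 _s_at genes of highest average level were all called higher, where 9.52% of all _s_at and _x_at probe sets were. That average includes the heat arrays and so favours genes with high heat levels. Nothing is read from this count. AT2G07698 had 10.32, 10.75 and 10.13 in heat and 6.28, 6.81 and 6.60 in control seedlings, a difference of 3.83 ± 0.20. AT2G07671 had 10.10, 10.29 and 10.14 in heat and 6.04, 6.45 and 6.55 in control seedlings, a difference of 3.82 ± 0.15. Both were about 14-fold higher after heat (14.3-fold and 14.2-fold). AT2G07707 had 9.80, 9.86 and 9.54 in heat, against 5.49, 5.75 and 5.64 in control seedlings, and differed by 4.10 ± 0.12. AT2G07741 had 9.51, 9.68 and 9.37 in heat, against 4.60, 5.02 and 4.80 in control seedlings. This was the largest difference of the 39 genes, 4.71 ± 0.14 or 26.2-fold, with 4.35 between the lowest heat and the highest control array.

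AT2G07722 had 8.33, 9.34 and 8.45 in heat and 3.84, 4.25 and 4.25 in control seedlings, a difference of 4.59 ± 0.28. AT2G07727 had 7.38, 8.02 and 7.27 in heat and 4.24, 5.13 and 4.39 in control seedlings, a difference of 2.97 ± 0.29. In both genes heat array 2 was the highest array. With labelled age as a covariate AT2G07727 kept a difference of 2.94 but was not called. AT2G07734 had 7.28, 7.18 and 6.90 in heat, against 4.76, 4.45 and 4.25 in control seedlings (difference 2.64 ± 0.16). AT2G07695 had 6.99, 7.33 and 6.93 in heat, against 5.78, 5.42 and 5.39 in control seedlings, and its difference of 1.55 ± 0.15 was the smallest of these 8 genes.

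The other 18 _s_at genes had differences of 0.11 to 4.41 with a median of 1.91. Of these, 13 were called higher, where 9.52% of all _s_at and _x_at probe sets were. The 13 were AT2G07773, AT2G07675, AT2G07676, AT2G07678, AT2G07687, AT2G07696, AT2G07701, AT2G07702, AT2G07706, AT2G07715, AT2G07719, AT2G07725 and AT2G07739. Their arrays ranged over 3.66 to 8.02 in heat and 3.05 to 4.72 in control seedlings. AT2G07675 stood highest among them by its difference, with 7.82, 8.02 and 7.81 in heat and 3.59, 3.58 and 3.26 in control seedlings, a 21.2-fold change. Its control levels lay below the control array medians of 4.49 to 4.53. The smallest difference among the 13 was 0.64, in AT2G07706. Calls were lost with labelled age as a covariate for AT2G07773 (0.85), AT2G07678 (1.48) and AT2G07706 (0.94), and with Bacillus scaling for AT2G07773 (0.25), AT2G07676 (0.39) and AT2G07706 (0.14). AT2G07673, AT2G07691, AT2G07692, AT2G07713 and AT2G07714 were not called. Their arrays ranged over 3.19 to 3.90 in heat and 3.01 to 3.72 in control seedlings, with differences of 0.11 to 0.28. In AT2G07713 and AT2G07714 the groups overlapped. Centring each array on its median brought AT2G07691 (0.38) and AT2G07692 (0.32) past the call threshold.

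The locus numbers do not run in the same order as the genes along the chromosome. In the order of the RefSeq table, 36 of the 39 genes formed a run from AT2G07773 to AT2G07741, and AT2G07680, AT2G07690 and AT2G07760 followed after it. Inside the run 30 of 36 genes were called higher, against 7.82% of all probe sets, with a median difference of 2.29. The run's _at genes had a median of 2.14, and 9 of 10 were called higher, against 7.73% of all _at probe sets. The 3 loci after the run, set apart here after their values were seen, had no call, and 1 of them had an unadjusted p under 0.05. Of these, 2 are the only members with a symbol of their own in RefSeq.

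AT2G07680 is ABCC13, an ATP-binding cassette transporter of the multidrug resistance-associated family. Its levels were 3.94, 4.02 and 3.83 in heat and 3.94, 3.81 and 3.86 in control seedlings, so that the groups overlapped (difference 0.06 ± 0.08). AT2G07690 is MCM5, a subunit of the minichromosome maintenance helicase that unwinds DNA at replication. It had 5.01, 4.67 and 4.79 in heat and 4.62, 4.65 and 4.42 in control seedlings, a difference of 0.26 ± 0.12. AT2G07760 had 3.42, 3.54 and 3.53 in heat and 3.27, 3.26 and 3.19 in control seedlings, a difference of 0.25 ± 0.08 that passed the threshold with centring (0.36) and with a prior variance that follows the mean level (0.25). All 3 differences were under 0.3, a size that 7 genes of the run shared.

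**Figure D2:**
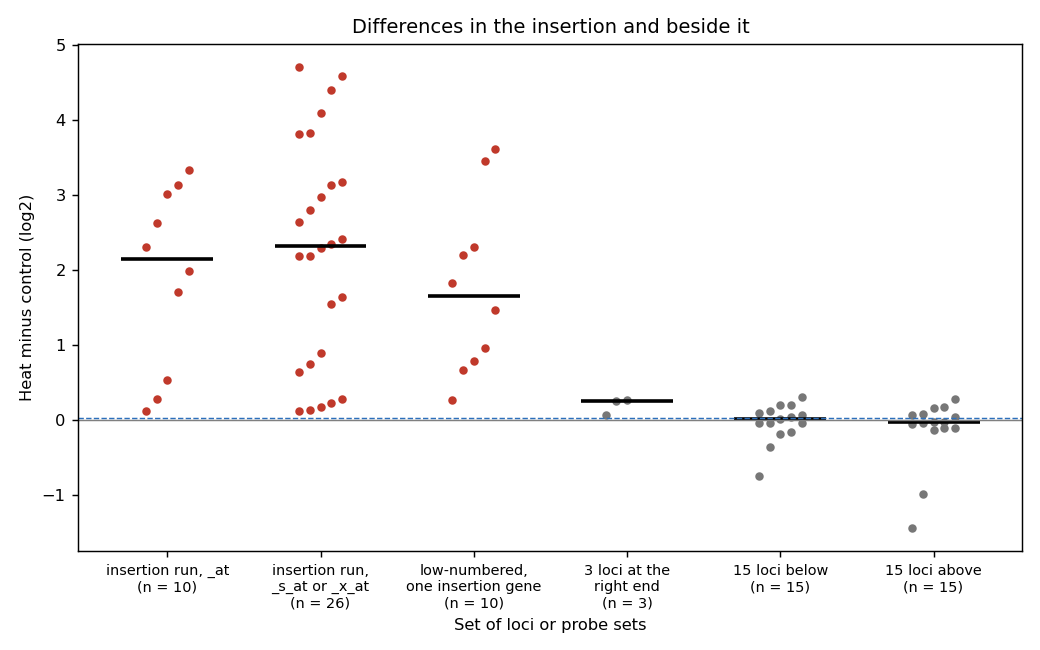
Heat minus control on the log2 scale (vertical axis) for each gene or probe set of the insertion run, the low-numbered probe sets that name 1 insertion gene, the 3 loci after the run and 15 flanking loci on each side (horizontal axis), with medians as black bars, 0 as a grey line and the median of all 22746 probe sets, 0.02, as a dashed line. The run spans 0.11 to 4.71, and the flanking loci span -1.45 to 0.30.

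Within the run, large and small differences stood side by side. AT2G07675, with a difference of 4.41, lay between AT2G07673 with 0.17 and AT2G07676 with 0.89. AT2G07707, with 4.10, was followed by AT2G07713 and AT2G07714 with 0.11 and 0.13 and then by AT2G07715 with 1.64. AT2G07722, with 4.59, lay between AT2G07721 with 0.28 and AT2G07724 with 0.53. AT2G07738, with 0.12, lay between AT2G07734 with 2.64 and AT2G07739 with 2.29. The mean levels of AT2G07673, AT2G07713, AT2G07714, AT2G07721 and AT2G07738 were 3.50 to 3.92 in heat and 3.37 to 3.63 in control seedlings. All lay below the lowest array median of 4.39. At such low levels an unchanged RNA and one too weak to detect cannot be told apart. Cut into 3 stretches of 12 genes in that order, the run had medians of 2.08, 2.36 and 2.32. In these stretches 9, 10 and 11 genes were called higher, against 7.82% of all probe sets. The run leaves out the 3 loci after it, which were set apart after their values were seen. How strongly each probe set responds to its RNA was not measured, so the order of these differences is not an order of changes in RNA.

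Of the genes read by more than 1 probe set, AT2G07715 and AT2G07674 gave differences that depended on the probe set, and AT2G07698 gave similar ones. AT2G07698 also had an _at probe set, with 6.17, 6.40 and 6.73 in heat and 2.99, 2.79 and 2.99 in control seedlings. Its difference of 3.51 ± 0.15 lay near the 3.83 of the _s_at probe set, although heat array 3 was the highest heat array on the _at probe set and the lowest on the other. AT2G07715 had a difference of 1.64 on its counted probe set, with 5.89, 5.94 and 5.77 in heat and 4.01, 4.32 and 4.34 in control seedlings. A low-numbered probe set for the same gene gave 5.22, 5.08 and 5.06 in heat and 4.20, 4.40 and 4.42 in control seedlings, a difference of 0.78. AT2G07674 was read by 3 low-numbered probe sets, with differences of 3.46, 2.31 and 1.47.

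The low-numbered series as a whole held 10 probe sets that the annotation assigns to a single insertion gene. They cover 8 loci, 7 of which have no other probe set counted here. Of the 10, 9 were called higher and none lower, against 7.82% and 11.5% of all probe sets. At an unadjusted p under 0.05, 9 were higher and 0 lower, against 14.1% and 18.1% of all probe sets. The differences of the 10 ran from 0.26 to 3.62 with a median of 1.65. AT2G07751 had the largest of these, with 8.05, 8.26 and 7.87 in heat and 4.19, 4.73 and 4.38 in control seedlings. AT2G07835, the locus with the last number of the range and annotated as a hypothetical protein, had the smallest, with 4.32, 4.50 and 4.65 in heat and 4.11, 4.38 and 4.20 in control seedlings. Its groups overlapped. With all 10 added to the members, 39 of 49 probe sets were called higher (7.82% of all probe sets), with a median of 2.18. Another 115 low-numbered probe sets carry no gene in the annotation, so their genome of origin was not analysed here. Of those, 30 were called higher and 1 lower, against 7.82% and 11.5% of all probe sets. Their differences had a median of 0.39 and a range of -0.45 to 6.24.

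Another 3 probe sets match an insertion gene together with a second gene and were not counted. The probe set shared by ABCI4 (AT2G07681) and ABCI5 (AT2G07771), both named as ATP-binding cassette genes, had 6.86, 6.80 and 7.09 in heat and 3.46, 3.71 and 3.48 in control seedlings, a difference of 3.37. The probe set shared by the tRNA loci AT2G07742 and AT2G07778 had 3.88, 4.01 and 3.93 in heat and 3.03, 3.35 and 3.30 in control seedlings, a difference of 0.71. The probe set shared by AT2G07750 and AT1G63250, a gene on another chromosome, had a difference of 0.53. On the deposited scale the heat arrays of all 3 lay above the control arrays, as for 18.8% of all probe sets.

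Loci beside the insertion were taken as the 15 nearest with a probe set of their own on each side in locus order. Of these 30 loci none was called higher and 3 were called lower by limma (background 7.82% and 11.5%), with a median difference of -0.03 and a range of -1.45 to 0.30. At an unadjusted p under 0.05, 1 was higher and 4 were lower, against 14.1% and 18.1% of all probe sets. With each probe set's own spread 0 were called higher and 2 lower, against 4.27% and 5.18% of all probe sets. By locus number, the members just inside the limits, AT2G07667 and AT2G07798, had differences of 2.30 and 3.13, and the loci just outside, AT2G07560 and AT2G09840, had 0.09 and -0.06. In RefSeq order those 2 members lie inside the run, and the first and last members are AT2G07773 with 0.75 and AT2G07760 with 0.25. Among the loci that fell, AT2G10940 had 9.16, 9.53 and 9.10 in heat and 11.01, 10.79 and 10.34 in control seedlings, a difference of -1.45 (limma adjusted p = 0.0034). AT2G07180 had 5.81, 5.90 and 6.09 in heat and 6.59, 6.71 and 6.76 in control seedlings, a difference of -0.75 (limma adjusted p = 0.00349).

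CRCK3 (AT2G11520), a calmodulin-binding receptor-like cytoplasmic kinase, had 5.10, 4.83 and 4.91 in heat and 5.61, 5.66 and 6.56 in control seedlings, a difference of -0.99 (limma adjusted p = 0.0396). Its call was lost without control array 2 or without any 1 heat array, with a limma adjusted p of up to 0.121 and differences of -1.14 to -0.94. It was also lost with quantile normalization, centring, the replicate block and each probe set's own spread (limma adjusted p = 0.0657, 0.0533, 0.0562 and 0.147), and with labelled age as a covariate, where the difference was -1.56. With that covariate AT2G10940 was not called either (difference -0.91, limma adjusted p = 0.295).

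Nuclear genes for organelle RNA and DNA factors were the first list set beside the insertion genes. It holds the phage-type RNA polymerases RPOTM, RPOTMP and RPOTP, the exoribonucleases PNPase and RNR1, the RNA helicase SUV3, the genome maintenance factors MSH1, RECA3 and OSB1, the organelle DNA polymerases POLIA and POLIB, and the helicase TWINKLE, which had no probe set of its own. Of the 11 measured, 0 were called higher and 1 lower by limma, against 7.82% and 11.5% of all probe sets, so the counts lay near the background. The differences ran from -0.47 to 0.34 with a median of -0.05. An unadjusted p under 0.05 was reached by 1 higher and 2 lower, against 14.1% and 18.1% of all probe sets. With each probe set's own spread none was called either way, against 4.27% and 5.18% of all probe sets. RECA3, a recombinase that limits rearrangement of the mitochondrial genome, had 5.17, 4.95 and 5.07 in heat and 5.68, 5.48 and 5.46 in control seedlings, a difference of -0.47 (limma adjusted p = 0.0194). It was not called without heat array 2 or heat array 3 (limma adjusted p of up to 0.0691), with quantile normalization (-0.33) or with labelled age as a covariate, where its difference was -0.24.

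Factors that keep transposons and inserted DNA silent were the second list, since the insertion lies beside a centromere. Of 14 genes for DNA methylation, histone modification, chromatin assembly and small RNA silencing, limma called 0 higher and 1 lower, again near the 7.82% and 11.5% of all probe sets. The differences ran from -0.59 to 0.32 with a median of 0.00. An unadjusted p under 0.05 was reached by 0 higher and 1 lower, against 14.1% and 18.1% of all probe sets. The counts were the same with each probe set's own spread, against 4.27% and 5.18% of all probe sets. MET1, the enzyme that maintains CG methylation, fell by 0.59, with 6.67, 6.81 and 6.54 in heat and 7.24, 7.28 and 7.25 in control seedlings (limma adjusted p = 0.006). With labelled age as a covariate MET1 kept a difference of -0.50 but was not called. The transcript levels of these lists say nothing of protein amounts or activity, and their part in the insertion's levels was not tested.

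Of the tissue and treatment markers, 8 of 10 had a probe set of their own, and the green tissue markers RBCS1A and CAB1 did not. PSBO1, a photosystem II protein of green tissue, had 12.90, 13.05 and 12.92 in heat and 13.44, 13.46 and 13.42 in control seedlings, a difference of -0.48. The root beta-glucosidase gene PYK10 had 9.90, 9.70 and 10.19 in heat and 11.41, 11.34 and 11.40 in control seedlings, a difference of -1.45. Both were called lower (limma adjusted p = 0.0065 and 0.000589), as were 11.5% of all probe sets. Each stands for its tissue by 1 gene only, so the share of green tissue or root in the samples was not measured. The seed storage genes CRA1 and CRU3 and the pollen markers SKS14 and AT3G28840 were not called, with differences of -0.02, 0.21, 0.00 and 0.20 and levels of 2.98 to 4.26 in all arrays. The part of these shifts in the members' levels was not tested.

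The labels of the heat group were borne out by the heat shock genes, with 1 exception among the control arrays. HSP70B, a cytosolic chaperone, had 13.65, 13.70 and 13.67 in heat and 4.62, 4.61 and 4.55 in control seedlings. HSP101, the disaggregase needed for heat tolerance, had 13.69, 13.83 and 13.71 in heat but 4.82, 4.87 and 8.22 in control seedlings, and HSFA2, a heat-induced transcription factor, had 12.83, 12.91 and 12.83 in heat and 3.69, 3.72 and 7.30 in control seedlings. Control array 3 thus stood 3.37 above the mean of the other control arrays for HSP101 and 3.60 for HSFA2. The insertion genes, like most probe sets, did not share that shift. Control array 3 minus the mean of control arrays 1 and 2 was -0.60 to 0.30 over the 39 genes. Its median was -0.07, against -0.05 over all probe sets. The shift was at least 1 for 0 of 39 members and for 680 of all 22746 probe sets, so the members lay near that share.

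**Figure D3:**
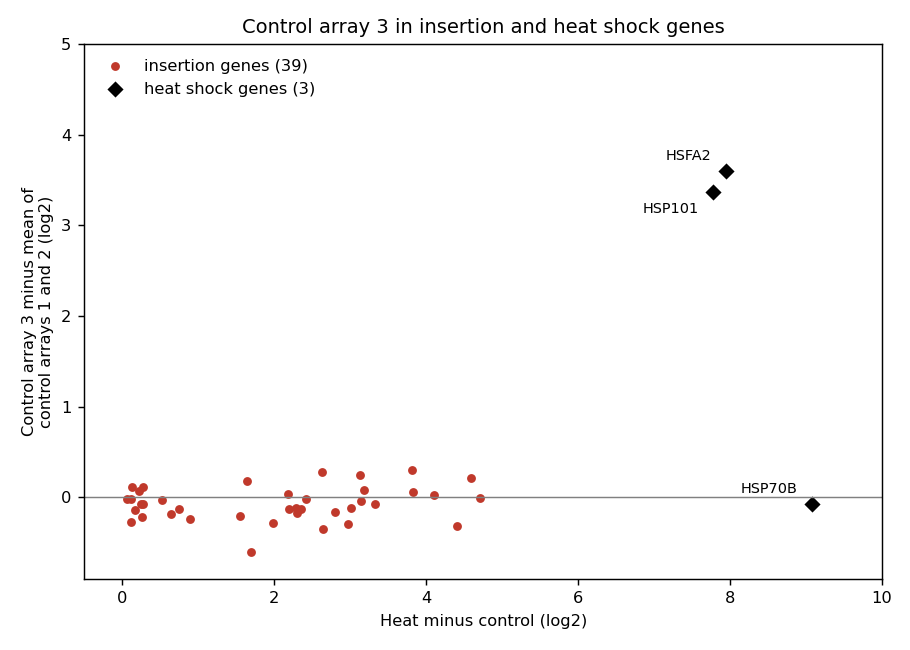
Control array 3 minus the mean of control arrays 1 and 2 (vertical axis, log2) against heat minus control (horizontal axis, log2) for the 39 insertion genes (red) and 3 heat shock genes (black diamonds). HSP101 and HSFA2 lie at 3.37 and 3.60 on the vertical axis, HSP70B at -0.07 and the insertion genes between -0.60 and 0.30.

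Within the heat group, most called insertion genes were lowest in the same array. Of the 30 called members, 24 were lowest in heat array 3 among the heat arrays and 17 were highest in heat array 2, with median deviations from the group mean of -0.15 and 0.11. Among the control arrays 16 of the 30 were highest in control array 2, with a median deviation of 0.09. The lowest control array was array 1 for 13, array 2 for 3 and array 3 for 14. Such counts were not made over all probe sets. Over all probe sets the median deviations of the 6 arrays were at most 0.03 in size. These within-group shifts were small beside the median difference of 2.52 of the same 30 genes.

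Among the alternative settings, the members' median was lowest with Bacillus scaling and highest with labelled age as a covariate. Scaling to the Bacillus controls lowered the called members by 0.50 at the median, in step with the fall of all probe sets, and gave differences of -0.44 to 4.21 over the 39 genes. With labelled age as a covariate the differences ran from 0.05 to 4.67, and the median standard error was 0.25, against 0.13 without it. The members called under both settings included the 4 genes with differences of at least 4.

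**Figure D4:**
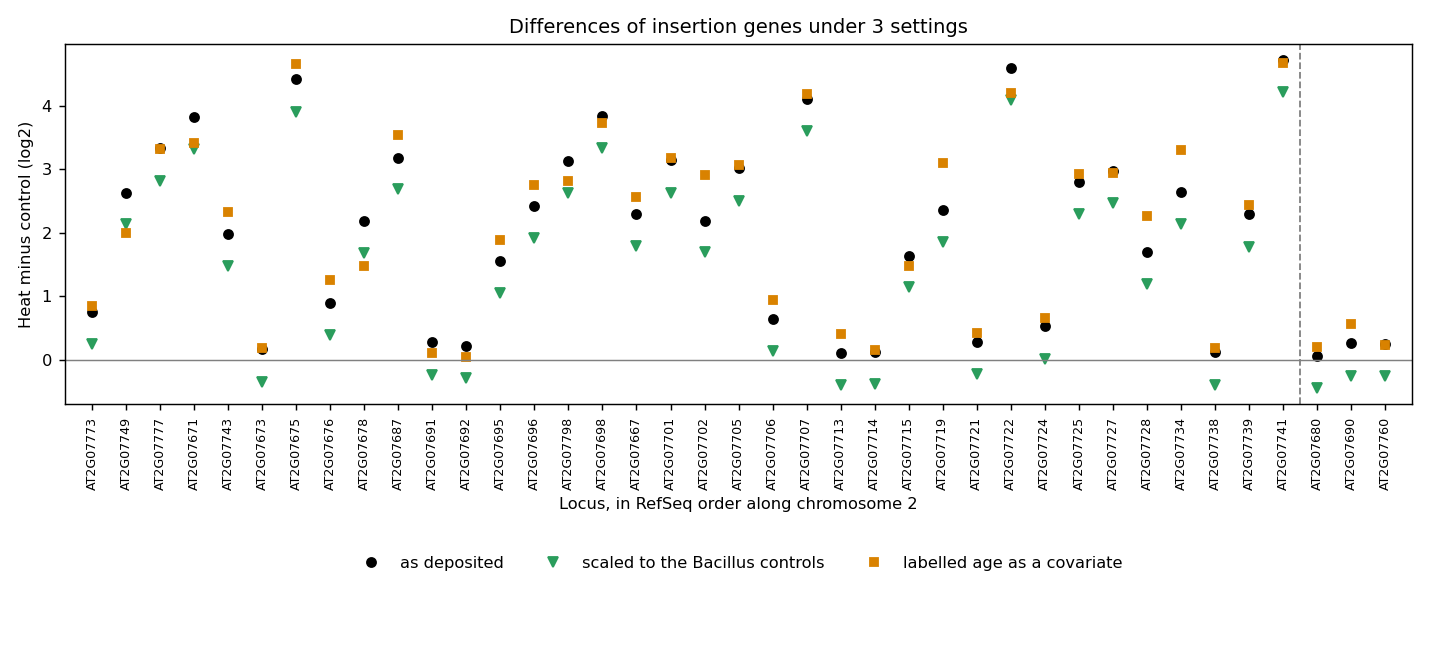
Heat minus control on the log2 scale (vertical axis) of each insertion gene (horizontal axis, in RefSeq order) as deposited (black circles), scaled to the Bacillus controls (green triangles) and with labelled age as a covariate (orange squares). The ranges over the 39 genes are 0.06 to 4.71, -0.44 to 4.21 and 0.05 to 4.67, and 10 genes turn negative with Bacillus scaling.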

How the data were processed

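Total RNA was extracted with Trizol and labelled as biotinylated cRNA, per the labels' protocols. The authors deposited 1 log2 level per probe set and array, made with RMA per the submitters' processing notes. No RMA version or annotation release is given in the sources used here. In the authors' annotated table, 3 columns give the deposited linear ratio of a control array to a heat array, whose log2 differed from the deposited levels by at most 0.0001 (3 of 3 columns within 0.001). The 6 per-sample mean columns of that table were not used.

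Of 22810 probe sets, 64 control probe sets were left out. The other 22746 were fitted with limma 3.58.1 (R 4.3.3) by lmFit and eBayes on group alone. The test was 2-sided with 4 residual degrees of freedom and 2.65 from the prior, and Benjamini-Hochberg adjustment ran over all 22746. The smallest p of an exact permutation test on these groups is 0.1. Arrays give no read depth, so their number limits the precision. Further steps used Python 3.11.15 with matplotlib 3.10.9, numpy 2.4.6 and pandas 2.3.3.

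Of 20661 probe sets with 1 gene, 20540 matched the RefSeq table of TAIR10.1 and 121 did not. The table served for names and order only. Every member was named or counted. Levels in every array were given for all _at genes, the 8 _s_at genes with the highest mean and members with several probe sets. Flanking and list genes were named where called, and HSFA2, AT2G07675 and AT2G07751 were added after their values were seen. The members, lists and rules were chosen with earlier results of these data known. The alternatives were other scalings, filters, error models, covariates, probe set choices and left-out arrays. The same-numbered heat and control arrays did not deviate together (correlations 0.0438, 0.192 and -0.0767), so replicate numbers were not taken as pairs. Samples kept in the dark, which the series text names, were not analysed here, and no probe, gene or protein sequence was used.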

Additional observations from a re-analysis of the deposited data

How the results depend on the processing

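Of the 30 called insertion genes, all 30 were called again with array weights, no moderation, centring and a trended prior variance, 29 with quantile normalization, 28 of 29 without the dimmest 25% of probe sets, 25 with Bacillus scaling and 24 with labelled age as a covariate. Each left-out array left 29, always without AT2G07721. With the replicate number as a block 29 were called, again without AT2G07721, and the counts over all probe sets were 1529 higher and 2266 lower. AT2G07721 reversed to -0.22 with Bacillus scaling. The cause of these losses was not tested. Centring moved the median of all probe sets to 0.12, Bacillus scaling to -0.49, the dim filter to -0.01 and the age covariate to 0.05. The counts called higher over all probe sets were then 3054 (centring), 643 (Bacillus), 971 (no moderation), 359 (age) and 637 (also 2-fold), and 1035 to 1774 with 1 array left out. The counts called lower were 9667 (Bacillus), 1178 (no moderation), 227 (age) and 906 (also 2-fold), and 1473 to 2807 with 1 array left out. The members' median was 2.30 with centring, 1.69 with Bacillus scaling, 2.32 without dim probe sets, 2.33 with age 2.19 to 2.31 with 1 array left out and 2.29 without the 3 loci after the run, a setting chosen after seeing the data, as was adding the low-numbered probe sets. The _at median was 1.79 (quantile), 1.80 (centring), 1.19 (Bacillus), 1.84 (dim filter), 1.61 (array weights), 2.0 (age), 0.53 (without the first and last member) and 2.14 (without the 3 loci), and 1.50 to 1.88 with 1 array left out. The _s_at median was 1.82 (Bacillus), 2.53 (dim filter) and 2.83 (age), and 2.28 to 2.46 with 1 array left out. Of the flanking loci, 1 was called higher with centring and 0 to 1 with 1 array left out. Those called lower were 16 (Bacillus), 1 (age) and 1 (also 2-fold), and medians were 0.07 (centring), -0.54 (Bacillus), 0.03 (age) and -0.03 to 0.01 with 1 array left out. Of the organelle factors, 0 were called lower with quantile normalization, no moderation, age or the 2-fold minimum, 6 with Bacillus scaling and 0 to 3 with 1 array left out. Those called higher were 1 with centring and 0 to 1 with 1 array left out, and medians were -0.56 (Bacillus) and 0.19 (age), and -0.11 to 0.03 with 1 array left out. Of the silencing factors, 5 were called lower with Bacillus scaling and 0 with age or the 2-fold minimum, and medians were -0.50 (Bacillus) and 0.21 (age). The planned comparison of mitochondrial genome probe sets was not run, because the annotation used here names no mitochondrial gene.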
